A study of Mus musculus with 8 samples.

Results

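The mineralization enzymes and phosphate transporters are 7 genes chosen by name, Alpl, Phospho1, Smpd3, Enpp1, Ank, Slc20a1 and Slc20a2, of the 24421 genes listed in the files, and the rule that names them uses no measured value, although it was written with earlier results of these data known. They were followed by RNA-seq in calvarial osteoblastic cells, primary cells released by collagenase and dispase from the skull bones of newborn (0 to 3 days old) C57BL/6 mice. The cells came from WT mice or from littermates lacking Def6 (Def6-/-), a guanine nucleotide exchange factor, so every cell type in the Def6-/- dishes carried the deletion. Before day 0 the cells were expanded for days in culture without ascorbic acid, so the day-0 libraries are of cultured cells. Poly-A+ RNA was profiled at day 0 and at day 12 of culture in a medium that drives bone formation, containing ascorbic acid and β-glycerophosphate. Each of the 4 groups had 2 libraries (WT day 0, Def6-/- day 0, WT day 12 and Def6-/- day 12). Every day-12 dish of either genotype received the same medium, and the design has no dish kept 12 days without it, so time in culture and osteogenic medium cannot be told apart.

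Bone mineral is calcium phosphate laid down on collagen, and its growth depends on the local balance of inorganic phosphate, the building block, and pyrophosphate, an inhibitor of crystal growth. Alpl, the tissue-nonspecific alkaline phosphatase, splits pyrophosphate outside the cell, and it also releases phosphate from β-glycerophosphate. Phospho1 frees phosphate from phosphocholine inside matrix vesicles, and Smpd3, the neutral sphingomyelinase 2, yields phosphocholine from sphingomyelin. Enpp1 makes pyrophosphate from extracellular ATP and Ank carries pyrophosphate or ATP out of the cell. Slc20a1 and Slc20a2 (PiT-1 and PiT-2) bring phosphate into the cell with sodium.

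Each library held between 2414856 and 3482837 reads on genes, 28.8% to 35.3% of all its reads. All 7 genes passed the filter on low values (genes whose mean was under 1 CPM in all 4 groups were left out) and are among the 12348 genes tested. Def6 had 112 to 186 reads in the 4 WT libraries and 0 to 2 in the 4 Def6-/- libraries. WT day 0 replicate 1 stood apart, with a correlation of 0.927 to replicate 2 of its group over the genes tested against 0.975 to 0.978 within the other groups, and with 34.9% of its reads not uniquely placed against 21.4% to 26.6% elsewhere. The WT changes from day 0 to day 12 are given with and without it. The summed level of 10 osteoblast markers, mostly Col1a1 and Col1a2, was 28818 to 44870 normalized CPM at day 0 and 80502 to 112763 at day 12. Macrophage markers were also detected in every library, so the dishes were not pure osteoblasts. The summed level of 11 of the 12 listed was 187 to 402 normalized CPM at day 0 and 3092 to 6223 at day 12. The other, Ptprc, was left out because some of its values were not whole reads. It did not pass the day test (log2 differences of 0.95 in WT and 0.16 in Def6-/- cells). In such bulk samples a change in the number of cells of a type and a change in RNA per cell cannot be told apart.

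Promoter sequences are shown for the 3 genes that passed the day test and have an entry in the RefSeq table (build GRCm38.p6), as the 250 bases before the transcription start, 5′ to 3′ on the strand of the gene. For Alpl and Slc20a1, which have 2 starts each in the table, the upstream start is shown. Capitals mark the core motif of Runx factors, TGTGGT or TGCGGT on either strand, since Runx2 is the transcription factor that defines the osteoblast lineage.
Alpl, chr4:137796385-137796634, minus strand: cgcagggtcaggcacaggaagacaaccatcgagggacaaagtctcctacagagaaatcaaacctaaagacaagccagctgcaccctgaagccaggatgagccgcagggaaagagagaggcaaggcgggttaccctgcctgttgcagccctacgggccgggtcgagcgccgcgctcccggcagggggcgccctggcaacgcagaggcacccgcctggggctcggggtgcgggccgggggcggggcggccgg
Phospho1, chr11:95824250-95824499, plus strand: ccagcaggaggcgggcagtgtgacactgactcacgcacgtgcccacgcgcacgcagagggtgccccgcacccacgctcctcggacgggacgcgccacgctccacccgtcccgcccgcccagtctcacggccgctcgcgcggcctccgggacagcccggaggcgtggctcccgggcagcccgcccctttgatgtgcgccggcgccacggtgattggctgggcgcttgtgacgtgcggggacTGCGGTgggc
Slc20a1, chr2:129198523-129198772, plus strand: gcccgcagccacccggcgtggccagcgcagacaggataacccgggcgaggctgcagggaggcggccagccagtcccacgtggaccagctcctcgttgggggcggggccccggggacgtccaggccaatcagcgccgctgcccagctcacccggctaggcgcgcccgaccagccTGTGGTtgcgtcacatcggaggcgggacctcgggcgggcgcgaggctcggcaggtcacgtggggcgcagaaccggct
The motif letters begin 10 bases before the Phospho1 start and 77 bases before the Slc20a1 start, and neither Alpl window holds them. They occur in 3 of the 7 windows available for 5 of the genes (the third is that of Enpp1), and in 18.6% of the 32851 windows of the same length in the table, so the letters occur both before a gene that rose and before one that fell.

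The first question was how these genes changed from day 0 to day 12. Alpl, Phospho1 and Smpd3, the genes whose products release phosphate or the substrate for it, rose in both genotypes, and Slc20a1, a phosphate importer, fell 4.16-fold in WT and 4.26-fold in Def6-/- cells. Enpp1, Ank and Slc20a2 did not pass the test in either genotype with all 8 libraries. Most exonic bases of Phospho1 also lie within exons of Abi3, on the opposite strand, and of Zfp652, on the same strand. Its values may therefore not hold for Phospho1 alone, and counting by strand would separate it only from Abi3. Values are normalized CPM (reads of a gene per 1000000 reads on genes, scaled by TMM), and differences are on the log2(normalized CPM + 1) scale, which understates the change of a low gene. The day comparisons were called at a Benjamini-Hochberg adjusted p under 0.05 over all genes tested (limma). By this rule 3 of 7 genes were higher and 1 was lower in WT cells, where 12.1% of all genes tested were higher and 6.61% lower. In Def6-/- cells the counts were also 3 and 1, where 11% of all genes tested were higher and 6.2% lower. Libraries did not overlap between days for 4 genes higher and 2 lower in WT cells, against 27.3% and 28.9% of all genes tested. In Def6-/- cells they did not for 3 genes higher and 2 lower, against 31.2% and 37.6%.

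**Figure D1:**
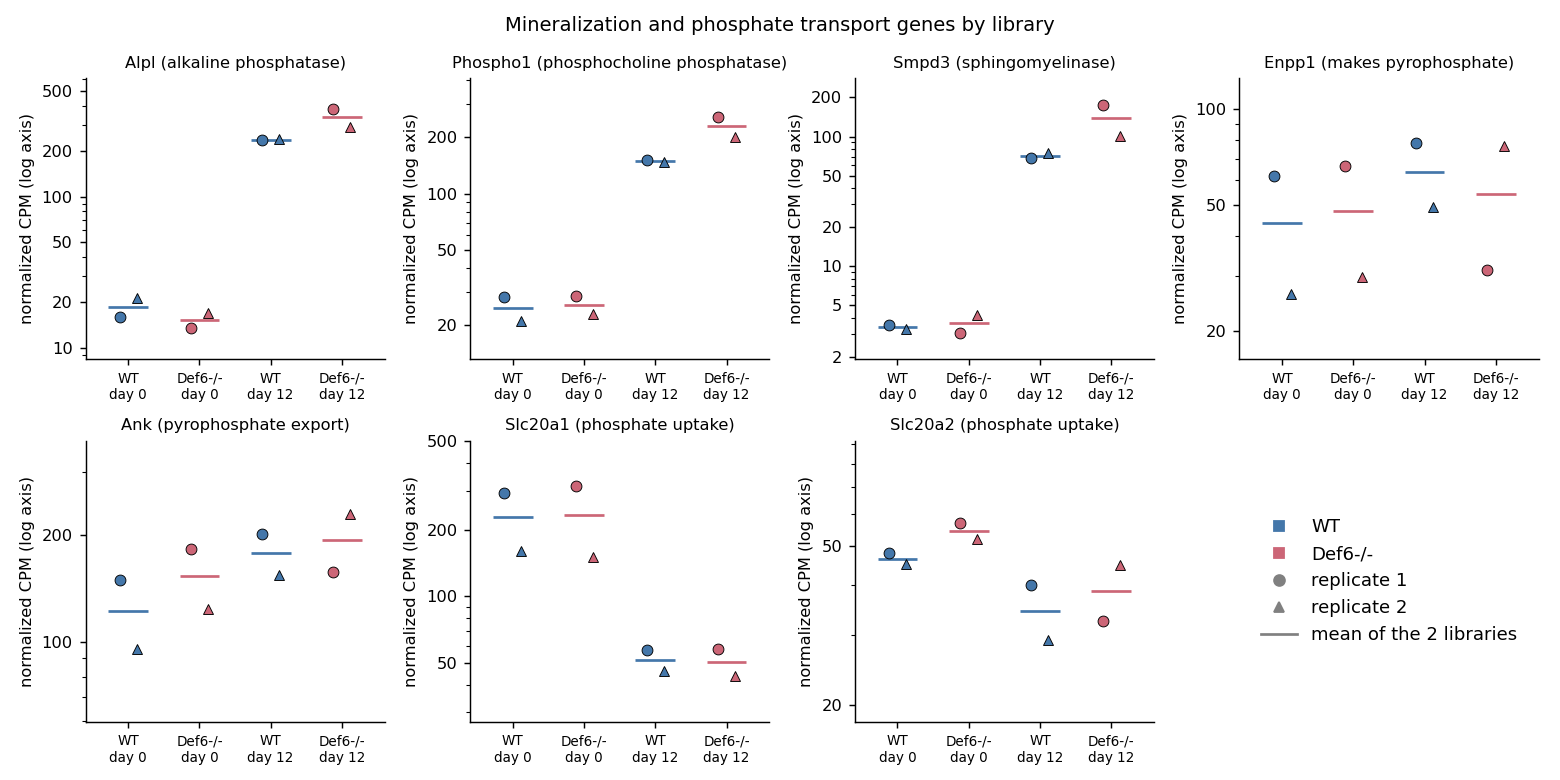
Normalized CPM (log axis) of the 7 genes in each of the 8 libraries, by group. Circles are replicate 1, triangles replicate 2 and horizontal lines the mean of the 2 libraries. Alpl, Phospho1 and Smpd3 lie higher and Slc20a1 lower at day 12 in every library, while the libraries of Enpp1 overlap between the days.

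Alpl (ENSMUSG00000028766.10, chr4:137741733-137796384 on GRCm38, minus strand) was at 16.1 and 21.5 normalized CPM in the WT libraries at day 0 and at 13.5 and 16.9 in the Def6-/- ones. By day 12 its level was 236 and 241 in WT and 380 and 291 in Def6-/- libraries. All day-12 libraries were thus far above all day-0 libraries, and at day 12 the Def6-/- libraries both lay above the WT ones. The rise was 3.61 ± 0.22 (log2, SE, limma adjusted p = 5.49e-05), or 12.2-fold, in WT cells and 4.37 ± 0.22 (adjusted p = 3.12e-05), or 20.7-fold, in Def6-/- cells. Without WT day 0 replicate 1 the WT rise was 3.46. No annotated exon of another gene overlaps Alpl, and its value rests on 35 to 59 reads per library at day 0 and 588 to 948 at day 12.

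Smpd3 (ENSMUSG00000031906.9, chr8:106252548-106337988, minus strand) was the lowest of the 7 at day 0, with 3.53 and 3.27 normalized CPM in WT and 3.08 and 4.23 in Def6-/- libraries, from 8 to 12 reads each. The day-12 libraries held 68.0 and 74.6 in WT and 175 and 101 in Def6-/- cells. It had the largest rise of the 7 genes, 4.04 ± 0.30 (log2, SE, limma adjusted p = 8.73e-05), or 16.4-fold, in WT cells and 4.86 ± 0.30 (adjusted p = 4.83e-05), or 29.0-fold, in Def6-/- cells. Leaving out WT day 0 replicate 1 gave a WT rise of 4.12. The 2 Def6-/- libraries at day 12 differed 1.74-fold from each other, more than 97.5% of genes with at least 10 normalized CPM in that group. Exons of Prmt7 on the opposite strand cover 4.72% of its exonic bases.

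Phospho1 (ENSMUSG00000050860.6, chr11:95824499-95832140, plus strand) was at 28.2 and 21.1 normalized CPM in WT and at 28.5 and 22.9 in Def6-/- libraries at day 0. Its day-12 level was 152 and 147 in WT and 256 and 199 in Def6-/- libraries, again with no overlap between days and with the Def6-/- libraries highest. The rise was 2.56 ± 0.22 (log2, SE, limma adjusted p = 0.000189), or 5.91-fold, in WT cells and 3.10 ± 0.22 (adjusted p = 7.77e-05), or 8.55-fold, in Def6-/- cells. The WT rise was 2.81 without WT day 0 replicate 1.

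Overlapping genes limit the Phospho1 values more than those of the other 6 genes. In the GENCODE M21 annotation, 84.2% of its exonic bases (1708 of 2029) are also exonic in Abi3, which runs on the opposite strand and encodes a regulator of the actin cytoskeleton, and 89.6% are exonic in Zfp652 on the same strand. Whether reads were counted by strand is not given in the sources used here, and without strand the reads of Phospho1 and Abi3 cannot be told apart. Counting by strand would not separate Phospho1 from Zfp652. How reads in shared exons were treated is not given either. Abi3 was at 27.5 and 25.1 normalized CPM in WT and at 27.7 and 21.5 in Def6-/- libraries at day 0. By day 12 it had reached 114 and 146 in WT and 217 and 183 in Def6-/- libraries, and its rise was 2.26 in WT and 2.98 in Def6-/- cells. The ratio of Phospho1 to Abi3 reads was 0.841 to 1.33 over the 8 libraries, so the pair had nearly the same level everywhere. Zfp652 was at 11.4 to 30.2 normalized CPM and did not pass the day test in either genotype (adjusted p of 0.330 in WT and 0.736 in Def6-/- cells). Among the day-12 libraries the summed macrophage markers were highest in WT replicate 1 (6223 normalized CPM) and stood at 3092 in WT replicate 2 and at 3826 and 3352 in the Def6-/- libraries. The Phospho1 values of the same libraries, in that order, were 152, 147, 256 and 199. The part of macrophage RNA in the Phospho1 and Abi3 values was not tested.

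**Figure D2:**
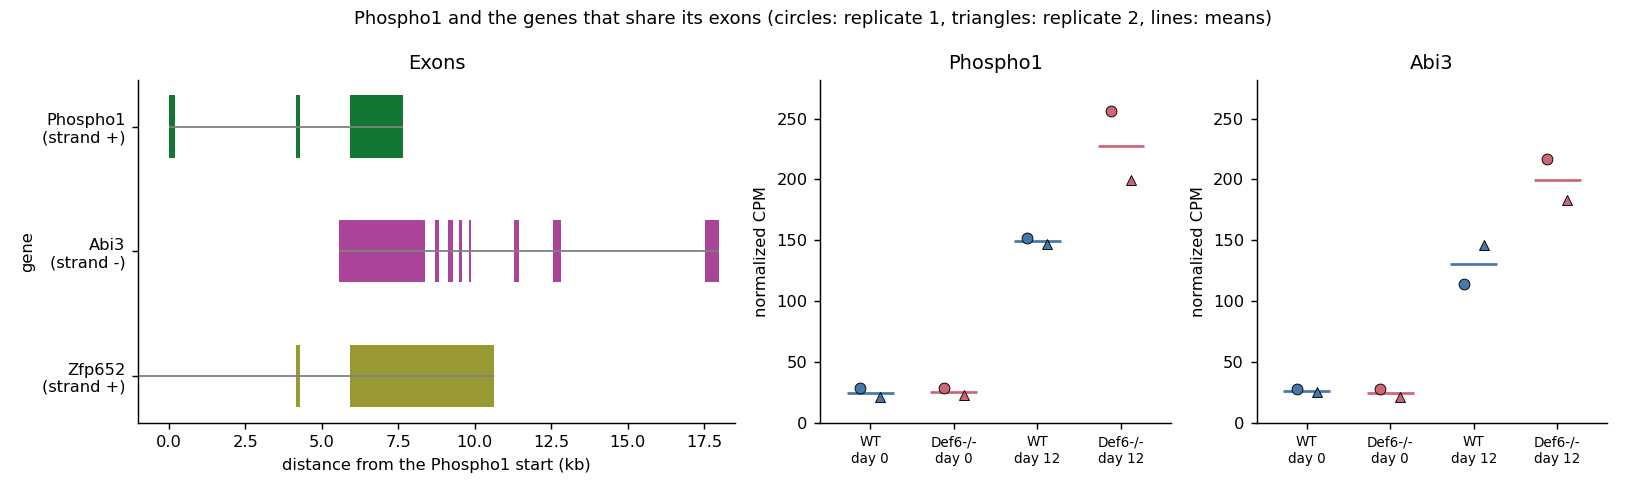
Left, exons (boxes) of Phospho1, Abi3 and the near end of Zfp652 against the distance from the Phospho1 start in kb. Middle and right, normalized CPM of Phospho1 and Abi3 in each library on the same axis, with circles for replicate 1, triangles for replicate 2 and lines for group means. The largest Phospho1 exon lies within an Abi3 exon, and both genes rise from between 21.1 and 28.5 at day 0 to between 114 and 256 at day 12.

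Enpp1 (ENSMUSG00000037370.13, chr10:24637914-24712159, minus strand), which makes the inhibitor that Alpl removes, was at 61.6 and 26.2 normalized CPM in WT and at 66.3 and 29.6 in Def6-/- libraries at day 0. The day-12 values were 78.3 and 49.2 in WT and 31.3 and 76.8 in Def6-/- libraries, so the groups overlapped throughout. Its replicates differed 1.59-fold to 2.46-fold within every group. Its day differences of 0.61 (95% confidence interval -0.65 to 1.87) in WT and 0.14 (-1.11 to 1.40) in Def6-/- cells have intervals wide enough on either side of 0 that a change within them was not detectable with these libraries. The WT difference was 1.26 without day 0 replicate 1 of WT and 0.011 without day 0 replicate 2, 0.28 without day 12 replicate 1 and 0.96 without day 12 replicate 2, and none of these passed.

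Ank (ENSMUSG00000022265.7, chr15:27466677-27594909, plus strand), the pyrophosphate exporter, was at 149 and 95.7 normalized CPM in WT and at 183 and 124 in Def6-/- libraries at day 0. Its day-12 values were 201.2 and 155 in WT and 157 and 229 in Def6-/- libraries. The WT libraries lay higher at day 12 without overlap, as did those of 27.3% of all genes tested. The WT difference of 0.56 (95% confidence interval -0.12 to 1.24, limma adjusted p = 0.232) did not pass, and that of Def6-/- cells was 0.33 (-0.35 to 1.01, adjusted p = 0.506). With 1 library left out the WT difference ranged from 0.24 to 0.92. The latter, without WT day 0 replicate 1, passed the threshold, in a fit with 1 WT library at day 0. At day 12, Enpp1, Ank and Slc20a2 shared a pattern across libraries, each being higher in WT replicate 1 and Def6-/- replicate 2 than in the other library of its group.

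Slc20a1 (ENSMUSG00000027397.14, chr2:129198764-129211616, plus strand), the phosphate importer PiT-1, was at 294 and 161 normalized CPM in WT and at 314 and 150 in Def6-/- libraries at day 0. At day 12 it was at 57.5 and 46.3 in WT and at 57.7 and 43.6 in Def6-/- libraries. Day 0 replicates differed 1.83-fold in WT and 2.09-fold in Def6-/- cells, yet every day-0 library was above every day-12 library. The difference was -2.06 ± 0.38 (log2, SE, limma adjusted p = 0.00682) in WT and -2.09 ± 0.38 (adjusted p = 0.00650) in Def6-/- cells. Each call rests on single libraries: in WT cells it was lost without day 12 replicate 2 (-1.88, adjusted p = 0.0725), and in Def6-/- cells without day 0 replicate 1 (-1.56, adjusted p = 0.0571) or day 12 replicate 2 (-1.83, adjusted p = 0.0770). Without WT day 0 replicate 1 the WT fall was -1.58 and passed. Antisense transcripts (Gm4430 and 9830144P21Rik) cover 5.02% and 8.10% of its exonic bases.

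Slc20a2 (ENSMUSG00000037656.9, chr8:22476788-22569612, plus strand), the related importer PiT-2, was at 47.9 and 45.1 normalized CPM in WT and at 57.0 and 52.1 in Def6-/- libraries at day 0. At day 12 it was at 39.8 and 29.1 in WT and at 32.5 and 44.8 in Def6-/- libraries. All day-12 libraries lay below all day-0 ones, at the closest by 44.8 against 45.1. Within a genotype this held for 28.9% of all genes tested in WT and 37.6% in Def6-/- cells. The differences of -0.44 (95% confidence interval -0.98 to 0.10, limma adjusted p = 0.237) in WT and -0.50 (-1.04 to 0.04, adjusted p = 0.190) in Def6-/- cells did not pass. The WT difference was -0.35 without WT day 0 replicate 1. Per kb of exon, Slc20a1 was 3.21 to 6.85 times the level of Slc20a2 in the day-0 libraries and 1.08 to 1.98 times in the day-12 libraries, ranges that do not overlap.

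The order of the genes changed between the days. As normalized CPM per kb of exon in WT cells at day 0, the highest levels were those of Slc20a1 (40.8 ± 16.9, SD, n = 2) and Ank (34.0 ± 11), which overlapped. Phospho1 (12.2 ± 2.5, with the reads of Abi3 possibly included) and Slc20a2 (7.48 ± 0.31) followed, then Alpl (4.66 ± 0.94) and Enpp1 (4.28 ± 2.44), which overlapped, and Smpd3 was lowest (0.650 ± 0.035). At day 12 in WT cells the order was Phospho1 (73.6 ± 1.7), Alpl (59.2 ± 0.8), Ank (49.3 ± 9.1), Smpd3 (13.6 ± 0.9) and Slc20a1 (9.30 ± 1.41), with Enpp1 (6.21 ± 2.0) and Slc20a2 (5.55 ± 1.22) overlapping at the bottom. Def6-/- cells at day 12 had the same order for the upper 5, from Phospho1 at 112 ± 20 and Alpl at 83.2 ± 15.7 to Slc20a1 at 9.08 ± 1.79. The first rank of Phospho1 at day 12 may not hold for that gene alone, given the exons it shares with Abi3 and Zfp652. Alpl, whose enzyme removes pyrophosphate, was 0.518 to 2.08 times the level of Enpp1 per kb in the day-0 libraries and 7.69 to 30.9 times in the day-12 libraries.

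The second question was whether loss of Def6 moved these genes. At day 12, Smpd3 and Phospho1 were higher in Def6-/- cells at the unadjusted p under 0.05 that the study's methods use, and none of the 7 genes passed after adjustment over all genes tested (adjusted p = 1 for each). Smpd3 differed by 0.89 ± 0.30 (log2, SE, 95% confidence interval 0.21 to 1.57) and Phospho1 by 0.60 ± 0.22 (0.09 to 1.1). Alpl differed by 0.48 ± 0.22 (-0.03 to 0.98), which did not pass in limma. It passed in the edgeR quasi-likelihood test (0.51) and in limma with only the day-12 libraries (0.48). In the other 7 of 9 alternatives that do not leave a single library out, DESeq2 among them, Alpl was not called. So 2 of 7 genes were called higher and 0 lower, where 0.753% of all genes tested were higher and 0.648% lower. With CPM as deposited 70.0% of the genes called were higher, against 53.8% here, and the same 2 of the 7 were called. The libraries of 3 of the 7 genes (Alpl, Phospho1 and Smpd3) did not overlap between genotypes, as did not those of 32.8% of all genes tested.

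These calls rest on few libraries. The Smpd3 difference fell below the threshold without Def6-/- day 12 replicate 1, the library with the highest value (0.51), and without WT day 12 replicate 1 (0.82). The Phospho1 call was lost without either of these (0.43 and 0.62) and without WT day 12 replicate 2 (0.59). Without WT day 0 replicate 1, which enters through the shared spread, the calls of Smpd3 (0.90) and Phospho1 (0.61) held and Alpl passed too (0.49), as it did without WT day 0 replicate 2 (0.48) or Def6-/- day 12 replicate 2 (0.68). Abi3, which shares the exons of Phospho1, differed by 0.62 at day 12 and passed. The summed level of the 10 osteoblast markers was also higher at day 12 in Def6-/- libraries (97014 to 112763 normalized CPM, against 80502 to 95370 in WT). Most of that sum is Col1a1 and Col1a2, and neither was called (0.23 and 0.26). Col1a1 overlapped between genotypes (62201 and 52850 against 43744 and 54555 normalized CPM), and Col1a2 did not (45296 and 39051 against 32348 and 37982). Of the 10 markers, 3 were called higher, Bglap, Ifitm5 and Dlx5. The summed level of 8 adipocyte markers was 555 to 580 in Def6-/- and 466 to 473 in WT libraries. Of the 7 adipocyte markers tested, Plin1, Cfd, Adipoq and Fabp4 were called higher, and Lpl (0.31), Cebpa (-0.07) and Pparg (-0.15) were not called. Much of the summed gap is Lpl (360 and 345 against 275 and 291 normalized CPM). Their part in the differences of the 7 genes was not tested. None of the 11 macrophage markers was called between genotypes at day 12.

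**Figure D3:**
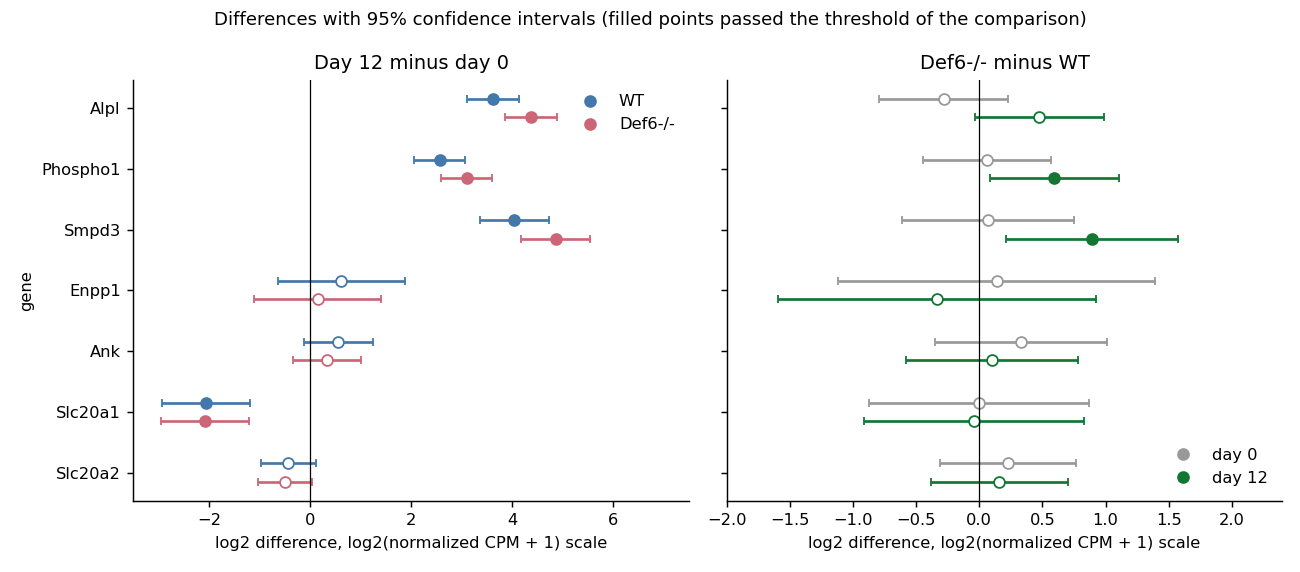
Log2 differences of the 7 genes with 95% confidence intervals. The left panel gives day 12 minus day 0 in WT and Def6-/- cells, and the right panel Def6-/- minus WT at day 0 and day 12. Filled points passed the threshold of their comparison (adjusted p under 0.05 on the left, unadjusted p under 0.05 on the right). Alpl, Phospho1, Smpd3 and Slc20a1 are filled on the left, and Phospho1 and Smpd3 at day 12 on the right.

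The other 4 genes showed no difference that passed at day 12. Ank differed by 0.10 (95% confidence interval -0.58 to 0.78), Slc20a1 by -0.04 (-0.91 to 0.83), Slc20a2 by 0.16 (-0.38 to 0.70) and Enpp1 by -0.33 (-1.59 to 0.93). These intervals do not show that the genotypes were alike, and that of Enpp1 is the widest.

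At day 0 none of the 7 genes was called between genotypes by limma, edgeR or DESeq2 at an unadjusted p under 0.05, where 1.13% of all genes tested were higher and 1.21% lower in Def6-/- cells. With CPM as deposited 72.3% of the genes called were higher, against 48.1% here, and still none of the 7 was among them. Slc20a2 was the gene whose libraries did not overlap (57.0 and 52.1 against 47.9 and 45.1 normalized CPM, difference 0.23, 95% confidence interval -0.31 to 0.77), and libraries did not overlap for 22.8% of all genes tested. Without WT day 0 replicate 1, Alpl was lower (-0.48) and Ank higher (0.64) in Def6-/- cells and both passed the unadjusted threshold, against -0.28 (-0.79 to 0.23) and 0.33 (-0.35 to 1.01) with it.

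The change from day 0 to day 12 was compared between genotypes by the interaction term. Alpl rose more in Def6-/- than in WT cells by 0.76 ± 0.32 (log2, SE, 95% confidence interval 0.04 to 1.48), which passed the unadjusted threshold in limma and did not pass after adjustment. The same difference was 0.82 for Smpd3 (-0.14 to 1.79) and 0.53 for Phospho1 (-0.18 to 1.25), which did not pass. With 1 library left out the Smpd3 value ranged from 0.46 to 1.25 and the Phospho1 value from 0.35 to 0.75. Each of these 2 genes passed the unadjusted threshold in some of those fits. So 1 of 7 genes was called, where 0.591% of all genes tested had a larger and 0.47% a smaller change in Def6-/- cells. For Slc20a1 the difference of the changes was -0.04 (-1.27 to 1.19). The Alpl value was 0.97 and passed without WT day 0 replicate 1, and it did not pass without Def6-/- day 0 replicate 1 (0.60), Def6-/- day 12 replicate 1 (0.61), WT day 12 replicate 1 (0.74) or WT day 12 replicate 2 (0.82).

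Other genes of the pathway were followed through 7 lists of 74 genes, of which 61 could be tested. In WT cells 19 were higher and 2 lower at day 12, and in Def6-/- cells 20 were higher and 1 lower. Over all genes tested 12.1% were higher and 6.61% lower in WT cells, and 11% higher and 6.2% lower in Def6-/- cells. Among 11 genes of pyrophosphate and nucleotide metabolism, 5 rose and 0 fell in each genotype, with list medians of 0.67 in WT and 0.54 in Def6-/- cells against -0.04 and -0.07 over all genes tested. Those with the smallest p in WT cells were Entpd3 (4.71, adjusted p = 0.000177) and Entpd2 (4.45, adjusted p = 0.00133), which hydrolyse extracellular nucleotides, and Panx3 (2.13, adjusted p = 0.00135), a channel of bone and cartilage cells. Panx3 was at 41.0 and 41.0 normalized CPM in WT and at 81.0 and 63.5 in Def6-/- libraries at day 12, a difference of 0.79 ± 0.28 (SE, limma adjusted p = 1).

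Of 14 genes of phosphocholine and sphingomyelin metabolism, 7 rose in WT and 6 in Def6-/- cells and 0 fell, with medians of 0.66 and 0.62. The smallest p values in both genotypes included those of Smpdl3a (2.21 in WT and 2.38 in Def6-/- cells), an acid sphingomyelinase-like phosphodiesterase, and Sgms2, a sphingomyelin synthase of the plasma membrane (1.45 and 2.02). Smpdl3b (1.84) joined them in WT cells. Enpp6 (2.39, at 3.61 and 4.98 normalized CPM at day 12) did so in Def6-/- cells. Sgms2 was at 86.8 and 66.4 normalized CPM in WT and at 151 and 103 in Def6-/- libraries at day 12, a difference of 0.71 ± 0.28 (SE, limma adjusted p = 1).

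Of 10 matrix regulators of mineralization, 4 rose in WT and 7 in Def6-/- cells and 0 fell, with medians of 1.36 and 1.90. Ibsp, bone sialoprotein, was at 0.728 to 10.2 normalized CPM in the day-0 libraries and at 1251 and 636 in WT and 2428 and 1543 in Def6-/- libraries at day 12. Phex, an endopeptidase of osteoblasts and osteocytes, was at 0.364 to 1.41 at day 0 and at 22.6 to 70.2 at day 12. Bglap, osteocalcin, had 0 reads at day 0 and was at 6.26 and 7.38 in WT and at 18.4 and 13.7 in Def6-/- libraries at day 12 (a genotype difference of 1.12 ± 0.34, SE, limma adjusted p = 1), and since it has near-identical copies its reads may be split among them.

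The remaining lists moved less. Of 13 genes that mature alkaline phosphatase, by its membrane anchor or by zinc supply, 1 rose (Pigt, a subunit of the anchor transamidase, 0.96 in Def6-/- cells) and 1 fell in each genotype (Piga by -1.13 in WT, Pigw by -1.45 in Def6-/- cells), so 11 did not pass while Alpl itself rose 12.2-fold and 20.7-fold. Of 7 annexins, calcium-binding proteins of matrix vesicles, Anxa4 rose (0.95 and 0.87) and 6 did not pass. Of 4 other phosphatases, Acp2 rose in WT cells (0.57, adjusted p = 0.0455). Of 2 other phosphate transporters tested, Slc25a3, the mitochondrial carrier, fell in WT cells (-0.87, adjusted p = 0.0236), and Xpr1, the exporter, was at -0.33 in WT and -0.43 in Def6-/- cells. Slc34a1, Slc34a2 and Slc34a3, the sodium phosphate transporters of kidney and gut, had 0 reads in every library. Between genotypes 3 of the 61 genes were called at day 12 (Panx3, Sgms2 and Bglap, each higher), 0 at day 0, and 2 by the interaction term (Panx3 and Bglap), all at the unadjusted threshold. Over all genes tested that threshold called 0.753% higher and 0.648% lower at day 12, 1.13% higher and 1.21% lower at day 0, and 0.591% with a larger and 0.47% with a smaller change by the interaction term.

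The genes most like Alpl, Smpd3, Phospho1, Ank and Enpp1 were found as those with the smallest root mean square difference of centred log2 levels over the 8 libraries, among 9586 other genes with a mean of at least 10 normalized CPM. For Alpl these were Cd200, Gdf10 and Col13a1 (0.234 to 0.256), and for Smpd3 Col13a1, Cd200 and Phex (0.248 to 0.283), so Cd200 and Col13a1 were among the 3 nearest of both. For Phospho1 they were Abi3 (0.174), which shares its exons, Xdh and Mmp12. Ank was nearest to Psen2, Ptk2b and Ak4 (0.127 to 0.181) and Enpp1 to Pdk4, Fah and Lsp1 (0.292 to 0.316). The points behind each value are the same 8 libraries, which share depth and the difference between days, so these likenesses are a description.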

How the data were processed

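RNA-seq libraries were made with a poly-A+ kit (NEBNext Ultra II), and the methods state that reads were aligned to mm10 with HISAT2, counted with HTSeq and summarised with edgeR. The deposited values are CPM, reads of a gene per 1000000 of all reads, including those on no gene. CPM steps gave whole reads in all 8 libraries (99.957% of 114821 positive values within 0.02 of a whole number). The 9 genes with values that were not whole were left out of lists and sums. They were Adgre1, Cd14, Csf1r, Ctsk, Fcgr3, Itgam, Itgb3 and the listed genes Ptprc and Acp5. In WT day 12 replicate 1, where 1 read is worth 0.101 CPM, reads were recovered the same way, and 9 of its 14893 positive values were not whole.

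CPM were rescaled to reads on genes with TMM factors. limma (3.58.1, trend) was fitted to log2(normalized CPM + 1) over all 8 libraries as 4 group means, leaving out genes under 1 CPM in every group. Since the files hold CPM, limma was the main test, and edgeR (4.0.16) and DESeq2 (1.42.0) on recovered reads, run in R 4.3.3, were alternatives, with other scalings, pseudocounts and filters, a replicate block and each library left out. Scripts were tested on simulated data. Day comparisons were called at an adjusted p under 0.05, genotype comparisons and the interaction at an unadjusted p under 0.05. Positions and exons come from GENCODE M21, and RefSeq promoters matched 5 of the 7 genes. The methods name the libraries biological replicates, the labels give no litter or batch, and p-values measure the spread between these libraries only.

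The 7 genes, named by a rule that uses no value, and the lists were chosen with earlier results of these data known. Named genes were the 7, at most the 3 with the smallest p per list and direction, and the 3 most like each, which for Slc20a1 and Slc20a2 are not reported here. Endothelial markers were not abundant (1 of 6 tested, summed level under 14 normalized CPM), and of 6 chondrocyte markers tested 2 rose and 1 fell in WT cells and 3 rose and 2 fell in Def6-/- cells.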

Additional observations from a re-analysis of the deposited data

Results flagged for a closer look

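Alpl had unequal day changes in WT and Def6-/- cells, its rise being larger by 0.76 (log2, 95% confidence interval 0.04 to 1.48) in Def6-/- cells. The interaction term of limma passed the unadjusted threshold and did not pass correction over all genes tested. It comes from a day-0 level of 13.5 and 16.9 normalized CPM in Def6-/- libraries against 16.1 and 21.5 in WT ones, which overlap, and a day-12 level of 380 and 291 against 236 and 241, which do not. With edgeR it was 0.83 and passed the unadjusted threshold, and with DESeq2 it was 0.83 and did not.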

How the results depend on the processing

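The day calls of Alpl, Phospho1, Smpd3 and Slc20a1 held under all 9 alternatives other than leaving a library out. Genes called were 2307 in WT and 2130 in Def6-/- cells, and 1039 and 4002 with only the libraries compared. The 173 genes called between genotypes at day 12 became 85 with DESeq2, 573 with only the libraries compared, 450 without a filter and 75 at 5 CPM. At day 0 the 289 became 100 with only the libraries compared, 191 with CPM as deposited, 443 without a filter and 171 at 5 CPM. The 131 of the interaction became 45 with DESeq2, 335 without a filter and 52 at 5 CPM, and among the 7 genes the interaction call (1) became 0 with DESeq2 and with CPM as deposited. The day-12 genotype difference of Alpl, not called by limma over all libraries or in 7 of the 9 alternatives, was called with edgeR (0.51) and with only the libraries compared (0.48). The cause was not tested. Slc20a1 turned sign at a value near 0, to 0.045 at day 12 with CPM as deposited and at day 0 to 0.0026 with DESeq2 and 0.12 with CPM as deposited. Of the genes called, DESeq2 put 71.8% higher at day 12 and 16.5% at day 0, and edgeR 32.3% at day 0.

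Replicate numbers are shared between groups by name only. Deviations of same-numbered libraries correlated at 0.0893 (WT), 0.152 (Def6-/-), 0.0373 (day 12) and 0.325 (day 0). The fit with the replicate block called 2587, 2326, 206, 363 and 174 genes in the 5 comparisons and 4, 4, 2, 0 and 1 of the 7 genes, as without it.

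Fits without 1 library each gave 831 to 5711 genes and 3 to 5 of the 7 in WT, 869 to 4495 and 3 to 4 in Def6-/- cells, 107 to 458 and 0 to 3 at day 12, 158 to 4589 and 0 to 2 at day 0, and 89 to 3302 and 0 to 2 for the interaction. The highest gene counts (5711, 4495, 4589 and 3302) came without WT day 0 replicate 2, which leaves the library that stands apart alone in its group. Values that turned sign ranged, in Def6-/- cells over time, from -0.43 to 0.85 for Enpp1. At day 12 the ranges were -0.96 to 0.32 for Enpp1, -0.16 to 0.39 for Ank, -0.22 to 0.17 for Slc20a1 and -0.057 to 0.40 for Slc20a2. At day 0 they were -0.14 to 0.26 for Phospho1, -0.46 to 0.73 for Enpp1, -0.53 to 0.52 for Slc20a1 and -0.11 to 0.25 for Smpd3. For the interaction they were -1.07 to 0.21 for Enpp1, -0.53 to 0.092 for Ank, -0.56 to 0.49 for Slc20a1 and -0.26 to 0.20 for Slc20a2. At 8 to 12 reads per library, the day-0 level of Smpd3 is limited by counting.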
